A study of Mus musculus with 60 samples.

Results

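The AP-1 and EGR genes described here are 9 mouse transcription factor genes: the FOS family members Fos, Fosb, Fosl1 and Fosl2, the JUN family members Jun, Junb and Jund, and the zinc finger genes Egr1 and Egr2. They were chosen by gene symbol as a family, with earlier results of these data known, and each has a row among the 24982 genes of both expression tables. The series title concerns TET1, an enzyme that oxidises methylated cytosine in DNA, in the making of adipocytes. RNA came from C3H10T1/2 cells, a mouse embryo fibroblast line with mesenchymal properties, at days 0, 2, 4 and 6 of adipocyte differentiation. The first table holds 24 libraries of 2 populations labelled WT (wild type) and Tet1-KO. The second holds 36 libraries of 3 populations, whose labels 23-NC, 23-Tet1 and 23-CATA are not spelled out. Every population and day has 3 libraries. All cells were held for a day past confluence. For the next 48 h the DMEM held 10% serum, insulin at 10 µg/ml, dexamethasone and rosiglitazone at 1 µM each, T3 at 1 nM and the phosphodiesterase inhibitor IBMX at 0.5 mM. Medium with 10% serum and 5 µg/ml insulin followed from day 2. The labels name no clone for any population, and they give no time between the last change of medium and harvest. They also do not state that replicates were separate cultures, so a p-value here reflects library-to-library spread, which may be technical.

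Immediate early genes are switched on within minutes of a stimulus such as serum, through factors already in the cell, and many of their transcripts and proteins are short-lived. FOS and JUN proteins pair through leucine zippers to form AP-1, which binds short DNA sites, whereas EGR proteins bind GC-rich sites through zinc fingers. In preadipocytes these genes respond to serum, to insulin through ERK kinase signalling, and to agents such as IBMX that raise cyclic AMP. FOSB and FOS are strong activators in AP-1, FOSL1 and FOSL2 lack the same activation domains, and JUNB and JUND have been described as weaker partners or antagonists of JUN in some settings.

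Depth was worked out from what 1 fragment adds to the FPKM of single-transcript genes at low levels. These were drawn from 7166 annotated genes with a transcript of 1500 bases or more. Depth came to 11.9 to 18.8 M fragments (median 14.85 M) in 59 libraries. Tet1-KO day 6 replicate 2 stood apart: its depth was unclear, its Gapdh level was 84.5 FPKM beside 2301 and 6484 FPKM in the other 2 libraries of its group, and Rpl41, a ribosomal protein gene, was at 64292 FPKM beside 12706 and 11142 FPKM. In Tet1-KO day 2 replicate 2 the summed level of 8 adipocyte markers was 48654 FPKM, against 8311 and 10576 FPKM in replicates 1 and 3. Tet1-KO day 4 replicate 2 was likewise the highest of its group, at 86077 FPKM against 40282 and 23238 FPKM. Where leaving out any of these libraries changed the call on a member in a comparison that uses it, the value without it is given too. Calls in other comparisons that changed without Tet1-KO day 6 replicate 2 are given at the end. Tet1 itself was at 0.88 to 1.12 FPKM in WT at day 0 and 0.24 to 0.26 FPKM in Tet1-KO, and at 0.11 FPKM or less in all libraries of both from day 2. It was at 0.12 FPKM or less in 23-NC, 4.04 to 7.46 FPKM in 23-Tet1 and 5.75 to 21.6 FPKM in 23-CATA. Mesenchymal markers were detected (8 of 8 genes, summed level 757 to 9120 FPKM), and several defining genes of other lineages were near 0: Ptprc and Adgre1 (macrophage) and Cdh5, Kdr and Tie1 (endothelial) at 0.05 FPKM or less, and Epcam (epithelial) and Myod1 (muscle) at 0.11 FPKM or less. Other markers of these lists were detected: Cd68 reached 132 FPKM, Lyz2 43.8, Des 21.3, Cdh1 2.92, Krt18 1.80 and Pecam1 1.10, and the remaining 4 stayed at 0.68 FPKM or less. The mean adipocyte marker sum was higher at day 6 than at day 0 in every population, from a mean of 153 FPKM in WT, 355 in Tet1-KO, 62.4 in 23-NC, 32.6 in 23-Tet1 and 2536 in 23-CATA at day 0 to 31467 FPKM or more at day 6 in all but 23-NC, where it was 11019 FPKM. At day 2 against day 0, 8 of 8 adipocyte markers were called higher in WT, 23-NC, 23-Tet1 and 23-CATA alike, and of 8 mesenchymal markers 8, 7, 4 and 8 were called lower. Over all genes, in the same order, 18.9%, 24.4%, 28.8% and 27.0% were called higher and 43.2%, 35.1%, 35.6% and 45.2% lower. In Tet1-KO, without day 2 replicate 2, 5 of 8 adipocyte markers were called higher and 1 of 8 mesenchymal markers lower. With all libraries, 7.72% of all genes were called higher and 14.8% lower there. The part of these markers in the results below was not tested. In bulk RNA, fewer cells of one kind and less RNA per cell cannot be told apart.

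The genes lie on several chromosomes of GRCm38 (GENCODE M21 gene spans). Fos is at chr12:85473890-85477273 (plus strand), Fosb at chr7:19302696-19310051 (minus), Fosl1 at chr19:5447547-5455946 (plus) and Fosl2 at chr5:32135801-32157842 (plus). Jun is at chr4:95049034-95052222 (minus), Junb at chr8:84974484-84978718 (minus), Jund at chr8:70698949-70700616 (plus) and Egr2 at chr10:67535475-67542188 (plus). The position of Egr1 is not printed here. Promoters of 5 members that fell after day 0 in WT, Tet1-KO and 23-CATA alike are shown next, from 140 bases before the transcription start to 20 after, as RefSeq gives them for GRCm38.p6. Capitals mark matches, on either strand, to the cyclic AMP response element half-site TGACG, to the Jun-type site TGACNTCA (which overlaps the AP-1 site TGANTCA only in part) or to the CArG box bound by serum response factor; Egr2 has 5 annotated starts, and the first window with both a CArG box and a TGACG is shown.
Fos (chr12:85473750-85473909, plus strand): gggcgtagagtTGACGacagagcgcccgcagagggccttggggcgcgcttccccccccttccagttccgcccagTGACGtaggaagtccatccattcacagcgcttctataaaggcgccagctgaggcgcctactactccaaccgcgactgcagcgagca
Fosb (chr7:19310026-19310185, minus strand): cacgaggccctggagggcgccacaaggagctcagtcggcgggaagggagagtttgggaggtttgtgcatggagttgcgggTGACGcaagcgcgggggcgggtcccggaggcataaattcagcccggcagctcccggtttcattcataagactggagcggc
Jun (chr4:95052203-95052362, minus strand): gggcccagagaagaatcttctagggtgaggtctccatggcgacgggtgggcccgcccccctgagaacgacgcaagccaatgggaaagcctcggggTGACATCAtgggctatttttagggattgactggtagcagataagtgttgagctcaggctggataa
Junb (chr8:84978729-84978888, minus strand): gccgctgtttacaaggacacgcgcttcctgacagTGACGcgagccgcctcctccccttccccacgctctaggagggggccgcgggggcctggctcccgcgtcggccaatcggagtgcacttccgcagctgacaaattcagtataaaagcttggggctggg
Egr2 (chr10:67537729-67537888, plus strand): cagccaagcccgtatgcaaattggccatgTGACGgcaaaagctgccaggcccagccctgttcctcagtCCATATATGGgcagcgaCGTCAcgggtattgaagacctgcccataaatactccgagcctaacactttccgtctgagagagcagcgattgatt
Fos carries TGACG at positions -129 to -125 and -66 to -62 from the start, Fosb at -60 to -56 and Junb at -106 to -102. Jun carries TGACATCA at -45 to -38. Egr2 carries CCATATATGG, a CArG box, at -72 to -63 between TGACG at -111 to -107 and its reverse complement at -55 to -51. Over all 32851 windows of 300 bases compared, 20.8% held TGACG, 8.83% TGACNTCA, 7.81% TGANTCA and 1.63% a CArG box. The EGR site GCGNGGGCG was in 5.55% of windows, Fosb and Fosl2 among them. These matches describe letters and were not tested as binding sites. Of 8 members looked for, 7 had a window; Fosl1 had none.

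**Figure D1:**
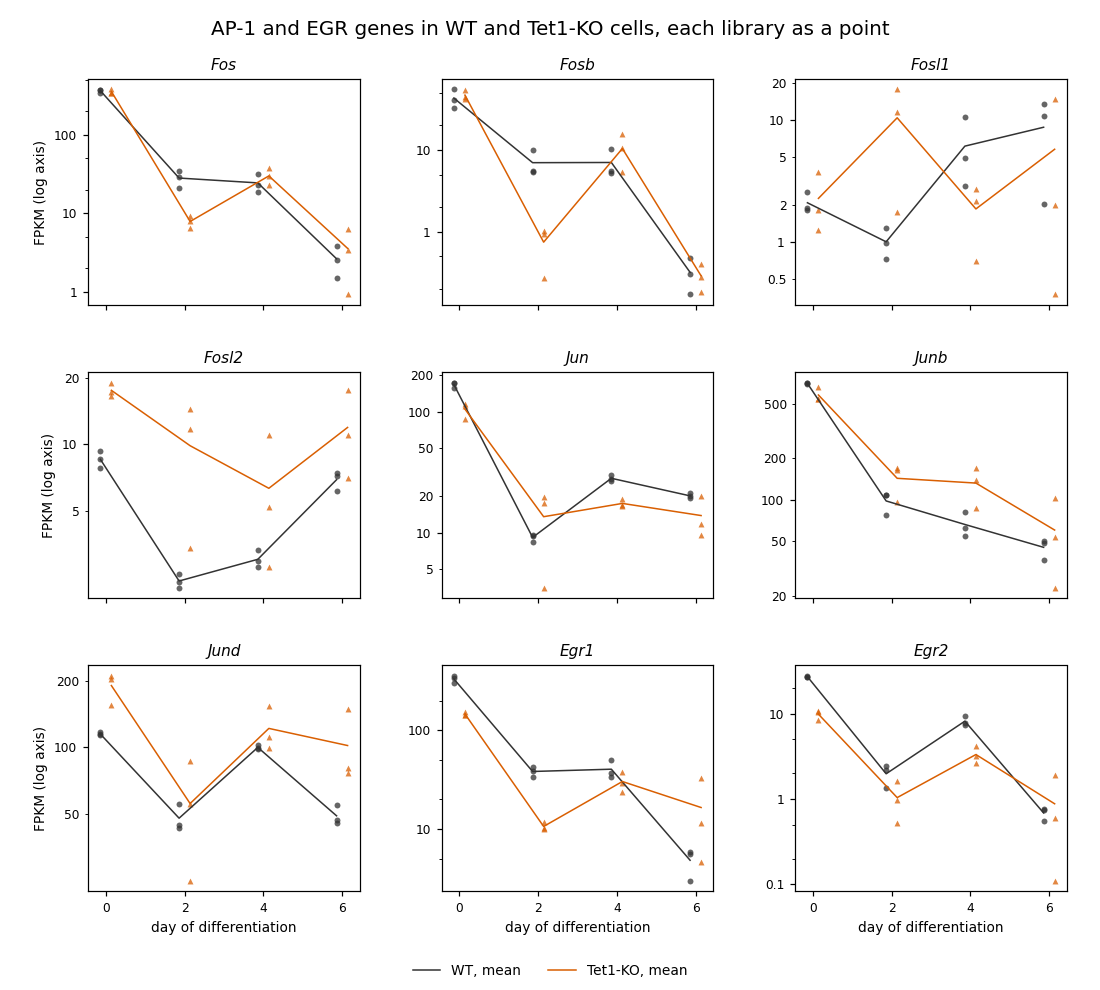
FPKM (log axis) of each of the 9 genes against day in WT (dark grey circles) and Tet1-KO (orange triangles) libraries; each point is a library, set slightly aside by population, and lines join the means of 3. Fos fell from 342 to 370.4 FPKM at day 0 to between 1.52 and 3.83 FPKM at day 6 in WT, whereas the Fosl1 libraries of several days overlap.

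In WT cells most of the AP-1 and EGR genes were higher before induction than afterwards. Of the 9 genes, 8 were called lower at day 2 than at day 0, 7 at day 4 and 7 at day 6, and none was called higher. A gene was called at a limma adjusted p under 0.05 over all genes tested in its table. Over all genes, 62.1%, 67.3% and 56.6% were called at these days, and 43.2%, 49.2% and 37.4% were called lower. The members' median change was -2.46, -1.97 and -3.67. All changes given here are differences of mean log2(FPKM + 1) from which the median over all tested genes was taken off. This scale understates the changes of genes at low FPKM. The medians taken off were -0.39, -0.52 and -0.29 in WT. The share of all calls that were higher depended on scaling: 30.4%, 26.9% and 33.9% as deposited, 49.0%, 50.0% and 51.2% after median-ratio scaling, and 50.3%, 47.8% and 47.1% after quantile normalisation.

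Fos, the founding AP-1 gene, was at 342, 368 and 370.4 FPKM in the 3 WT libraries of day 0. It was at 34.1, 20.9 and 29.0 FPKM at day 2, 23.1, 18.4 and 31.6 FPKM at day 4, and 3.83, 1.52 and 2.56 FPKM at day 6. Every later library was below every library of day 0, and the libraries of day 6 were below those of all other days. Mean FPKM was 12.9 times lower at day 2 and 137 times lower at day 6, changes of -3.27 and -6.39 (SE 0.35; limma adjusted p = 6.28e-08 and 2.33e-11). By size of the decrease at day 6, Fos ranked 1 of 11911 genes, Egr1 ranked 5 and Fosb 11. Fosb, the closest paralogue of Fos, was at 32.9, 41.4 and 55.0 FPKM at day 0 and at 0.48, 0.17 and 0.30 FPKM at day 6. Its groups did not overlap, with a change of -4.75 (SE 0.31; limma adjusted p = 2.32e-10).

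The JUN genes took separate courses in WT. Jun was at 157, 171 and 173 FPKM at day 0, at 9.48, 8.47 and 9.60 FPKM at day 2, and at 20.1, 19.3 and 21.3 FPKM at day 6. The lowest level was thus that of day 2, and Jun stood higher again at day 4 (26.7, 27.9 and 29.96 FPKM) with no overlap between days. The changes were -3.65 at day 2 and -2.70 at day 6 (SE 0.37; limma adjusted p = 4.07e-08 and 1.68e-06). Junb, the most abundant member before induction, went from 713, 691 and 707 FPKM to 49.9, 36.1 and 48.6 FPKM at day 6, a change of -3.67 (SE 0.37; limma adjusted p = 5.55e-08). Jund, usually the constitutive JUN gene, was within 114 to 117 FPKM at day 0, 43.1 to 55.4 at day 2, 97.95 to 103 at day 4 and 45.2 to 54.9 at day 6. It was called lower at days 2 and 6 (changes of -0.87 and -0.94) and not at day 4 (0.31).

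Egr1, which encodes an early growth response factor induced by serum, was at 300.2, 339 and 359 FPKM at day 0 in WT. At day 2 it was at 42.7, 33.4 and 38.8 FPKM, at day 4 at 37.0, 33.8 and 50.5 FPKM, and at day 6 at 5.54, 2.98 and 5.90 FPKM. Day 0 was above all other days, day 6 was below them, and days 2 and 4 overlapped. The change at day 6 was -5.59 (SE 0.39; limma adjusted p = 7.96e-10). Egr2, its paralogue with known roles in adipogenesis and nerve myelination, was at 26.9, 27.0 and 27.98 FPKM at day 0 and at 0.77, 0.55 and 0.74 FPKM at day 6. Egr2 was partly restored at day 4 (7.83, 7.32 and 9.45 FPKM) above the libraries of day 2 (2.42, 1.34 and 2.17 FPKM). Its changes at days 2, 4 and 6 were -2.88, -1.11 and -3.78, all called lower.

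Fosl1 and Fosl2, the FOS-related genes, did not follow this course. Fosl1 (FRA-1) was at 1.82 to 2.55 FPKM at day 0 in WT and at 10.7, 2.03 and 13.4 FPKM at day 6, and none of the 3 days was called. Its day 6 libraries overlapped those of day 0. Without replicate 2 of day 6 it was called higher (2.34; limma adjusted p = 0.0374), as it was in 4 other settings (0.000644 to 0.0426), and day 4 was called higher in 3 settings (0.00193 to 0.0277). At day 2 (0.72 to 1.30 FPKM, below every library of day 0) it was called lower in 2 settings, library weights and the compared groups alone (0.0286 and 0.0016). Fosl2 (FRA-2) went from 7.80 to 9.27 FPKM at day 0 to 2.25 to 2.60 FPKM at day 2 and back to 6.12 to 7.44 FPKM at day 6. It was called lower at days 2 and 4 (-1.09 and -0.73; limma adjusted p = 0.00264 and 0.00811). Both Fosl2 calls were lost after quantile normalisation (limma adjusted p = 0.0959 and 0.313), and that of day 4 also after median-ratio scaling (0.119).

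Tet1-KO cells showed the same kind of decrease with differences in its course. At each of days 2, 4 and 6, 7 of 9 members were called lower than at day 0 and none higher. Over all genes 22.5%, 46.8% and 45.6% were called, and 14.8%, 34.7% and 36% were called lower. The members' median change was -2.35, -1.87 and -2.49. The medians over all genes were -0.10, -0.29 and -0.38, and the share of calls that were higher went from 34.3%, 25.7% and 20.9% to 47.5%, 48.9% and 50.1% after median-ratio scaling (51.2%, 47.2% and 45.4% after quantile normalisation). Fos was at 374, 341 and 339.6 FPKM at day 0, at 9.25, 7.89 and 6.44 FPKM at day 2, at 37.3, 29.4 and 22.7 FPKM at day 4, and at 3.45, 0.93 and 6.35 FPKM at day 6. Day 2 was therefore lower than day 4, without overlap, and in size of the decrease Fos ranked 1 of 11911 genes at both day 2 and day 6. Fosb had the same order, at 42.5 to 54.2 FPKM at day 0, 0.27 to 1.02 at day 2, 5.36 to 15.5 at day 4 and 0.18 to 0.40 at day 6.

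The day 6 changes were -6.08 for Fos, -4.83 for Fosb, -2.49 for Jun, -3.11 for Junb, -3.08 for Egr1 and -2.26 for Egr2. Without Tet1-KO day 6 replicate 2 they were, in the same order, -5.76, -5.03, -2.48, -2.75, -3.23 and -2.14, and all 6 stayed called (limma adjusted p between 8.60e-11 and 0.000106). The call on Jund at day 6 (-0.56; limma adjusted p = 0.0206) was lost without that library (0.072), without day 6 replicate 1 (0.0589), and without day 0 replicate 1 or 2 (0.0608 and 0.0596), after median-ratio scaling (0.166) and with only the compared groups fitted (0.14). Fosl1 was not called on any day, with values from 0.37 to 17.8 FPKM over the 12 Tet1-KO libraries. In Tet1-KO day 2, Fosl1 was at 11.7, 1.76 and 17.8 FPKM and Jun at 17.6, 3.54 and 19.9 FPKM, so that replicate 2, the library with the high adipocyte marker sum, was the lowest for both. Without it, the day 2 change of Jun was -2.38 in place of -3.02, and it stayed called.

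Differences between Tet1-KO and WT on the same day were fewer. At day 0, Egr1 and Egr2 were called lower in Tet1-KO and the other 7 genes were not called (16.8% of all genes called, 11.0% lower). Egr1 was at 152, 144 and 145 FPKM against 300.2 to 359 FPKM in WT, without overlap, a change of -1.08 (SE 0.39; limma adjusted p = 0.0476). That call was lost without any 1 of the 6 libraries (limma adjusted p from 0.077 to 0.142), with a pseudocount of 0.1 FPKM (0.0798), without a filter (0.0654) and after median-ratio scaling (0.0809). Egr2 was at 10.4, 10.9 and 8.41 FPKM against 26.9 to 27.98 FPKM, also apart, a change of -1.29 (SE 0.26; limma adjusted p = 0.0014), lost with a pseudocount of 0.1 FPKM (0.0704). Fos and Fosb overlapped between the populations at day 0, at ratios of Tet1-KO to WT mean FPKM of 0.977 and 1.09. Groups were apart, though not called, for Fosl2 (1.05), Jund (0.80), Jun (-0.59) and Junb (-0.20). With only the compared groups fitted, Fosl2 and Jund were called higher and Jun lower (limma adjusted p = 0.000527, 0.00475 and 0.00528). Library weights gave the same calls, and quantile normalisation called Fosl2 and Jun (limma adjusted p = 0.0258 and 0.0291).

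At day 2, Fos, Fosb and Egr1 were called lower in Tet1-KO than in WT, and Fosl1 and Fosl2 higher. Over all genes 6.76% were called lower and 16.2% higher (22.9% in all). Fosl2 was already apart at day 0, at means of 17.5 FPKM in Tet1-KO and 8.54 FPKM in WT (1.05, not called). Its Tet1-KO mean was 9.84 FPKM at day 2. The change of Fosl2 from day 0 to day 2 was not called as different between the populations (0.23, limma adjusted p = 0.515). Fos was at 6.44 to 9.25 FPKM against 20.9 to 34.1 FPKM in WT, a change of -1.86 (SE 0.35; limma adjusted p = 0.00263). Fosb was at 0.27 to 1.02 FPKM against 5.43 to 10.1 FPKM, a change of -2.34 (SE 0.31; limma adjusted p = 0.000228). Egr1 was at 10.0 to 11.7 FPKM against 33.4 to 42.7 FPKM, a change of -1.92 (SE 0.39; limma adjusted p = 0.00482). All 3 pairs of groups were apart, and without Tet1-KO day 2 replicate 2 the changes were -1.94, -2.50 and -1.95. Fosl2 was at 11.7, 3.39 and 14.4 FPKM in Tet1-KO against 2.25 to 2.60 FPKM in WT, a change of 1.31 (SE 0.39; limma adjusted p = 0.0112) that was lost without replicate 1 or 3 (0.0786 and 0.0767) and was 1.80 without replicate 2 (0.00029). The call on Fosl1 (1.96; SE 0.76; limma adjusted p = 0.0478) did not hold under most alternatives, from 0.0501 with only the compared groups fitted to 0.213 without Tet1-KO day 2 replicate 3. Without replicate 2 it was 2.73 (limma adjusted p = 0.00617), and Jun was then called higher as well (0.72; limma adjusted p = 0.00237). The mean adipocyte marker sum of day 2 was 57313 FPKM in WT and 22514 FPKM in Tet1-KO, with 5 of 8 adipocyte markers called lower and 7 of 8 mesenchymal markers called higher in Tet1-KO (7 and 8 without Tet1-KO day 2 replicate 2); their part was not tested.

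At day 4 only Egr2 was called, lower in Tet1-KO (16.0% of all genes called, 6.22% lower). It was at 3.16, 2.67 and 4.16 FPKM against 7.32 to 9.45 FPKM in WT, a change of -1.18 (SE 0.26; limma adjusted p = 0.00863), lost with a pseudocount of 0.1 FPKM (0.0922). Junb and Fosl2 were not called at day 4 with all libraries (0.87 and 0.62; limma adjusted p = 0.0808 and 0.226). Both were called higher without Tet1-KO day 4 replicate 2 (1.11 and 0.98; limma adjusted p = 0.0264 and 0.0434). The Junb groups were apart, at 87.3 to 170 FPKM against 54.3 to 81.8 FPKM in WT. Those of Fosl2 overlapped. At day 6 Jund and Egr1 were called higher (45.4% of all genes called, 15.7% higher). Jund was at 81.0, 76.8 and 149 FPKM against 45.2 to 54.9 FPKM, a change of 1.18 (SE 0.31; limma adjusted p = 0.0156), and 1.16 (0.0101) without Tet1-KO day 6 replicate 2. It was lost without replicate 3, the highest library (0.0783), and with only the compared groups fitted (0.0964). Egr1 was at 4.64, 11.5 and 33.3 FPKM against 2.98 to 5.90 FPKM, and these groups overlapped. Its change of 1.45 (SE 0.39; limma adjusted p = 0.0151) was 1.30 without replicate 2 (0.0242) and was lost without replicate 3 (0.093), without WT day 6 replicate 2 (0.0773), with the compared groups fitted alone (0.235) and with library weights (0.03; 0.932). Without Tet1-KO day 6 replicate 2, Fos was called higher at day 6 (0.71; limma adjusted p = 0.0477), against 0.38 (0.687) with it. The share of all calls that were higher, at days 0, 2, 4 and 6, went from 34.7%, 70.5%, 61.1% and 34.6% to 48.4%, 48.9%, 46.1% and 45.4% after median-ratio scaling (45.2%, 50.0%, 48.1% and 47.3% after quantile normalisation), and the medians taken off were -0.09, 0.17, 0.09 and -0.20.

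The change from day 0 itself was compared between the populations. From day 0 to day 2, Fos fell further in Tet1-KO than in WT by 1.95 (SE 0.49; limma adjusted p = 0.0214) and Fosb by 2.61 (SE 0.44; limma adjusted p = 0.00178), and no other member was called (21.9% of all genes called, 5.53% lower). The call on Fos was lost without WT day 2 replicate 1 (0.0586), without Tet1-KO day 2 replicate 3 (0.0516) and with a pseudocount of 0.1 FPKM (0.056). Without Tet1-KO day 2 replicate 2, Jun, Fosl1 and Egr2 were called as well, with less of a fall or more of a rise in Tet1-KO (1.27, 2.57 and 0.64; limma adjusted p = 0.000609, 0.0346 and 0.0496). From day 0 to day 6, Egr1 and Egr2 fell less in Tet1-KO, by 2.52 (SE 0.56) and 1.52 (SE 0.37) (limma adjusted p = 0.00581 and 0.0124; 17.8% of all genes called, 7.16% higher). Without Tet1-KO day 6 replicate 2 these were 2.39 and 1.66 (limma adjusted p = 0.00622 and 0.001). For Egr2 the day 6 groups overlapped near 0, at means of 0.88 FPKM in Tet1-KO and 0.687 FPKM in WT (0.24, limma adjusted p = 0.907). The lower start of Tet1-KO at day 0 (-1.29) thus makes up most of the Egr2 value. The Egr1 value was at 0.0501 with only the compared groups fitted, and the Egr2 call was lost with a pseudocount of 0.1 FPKM (0.256). For days 0 to 2 the share of calls that were higher went from 74.8% to 47.3% after median-ratio scaling and 52.8% after quantile normalisation, and the median over all genes was 0.29.

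**Figure D2:**
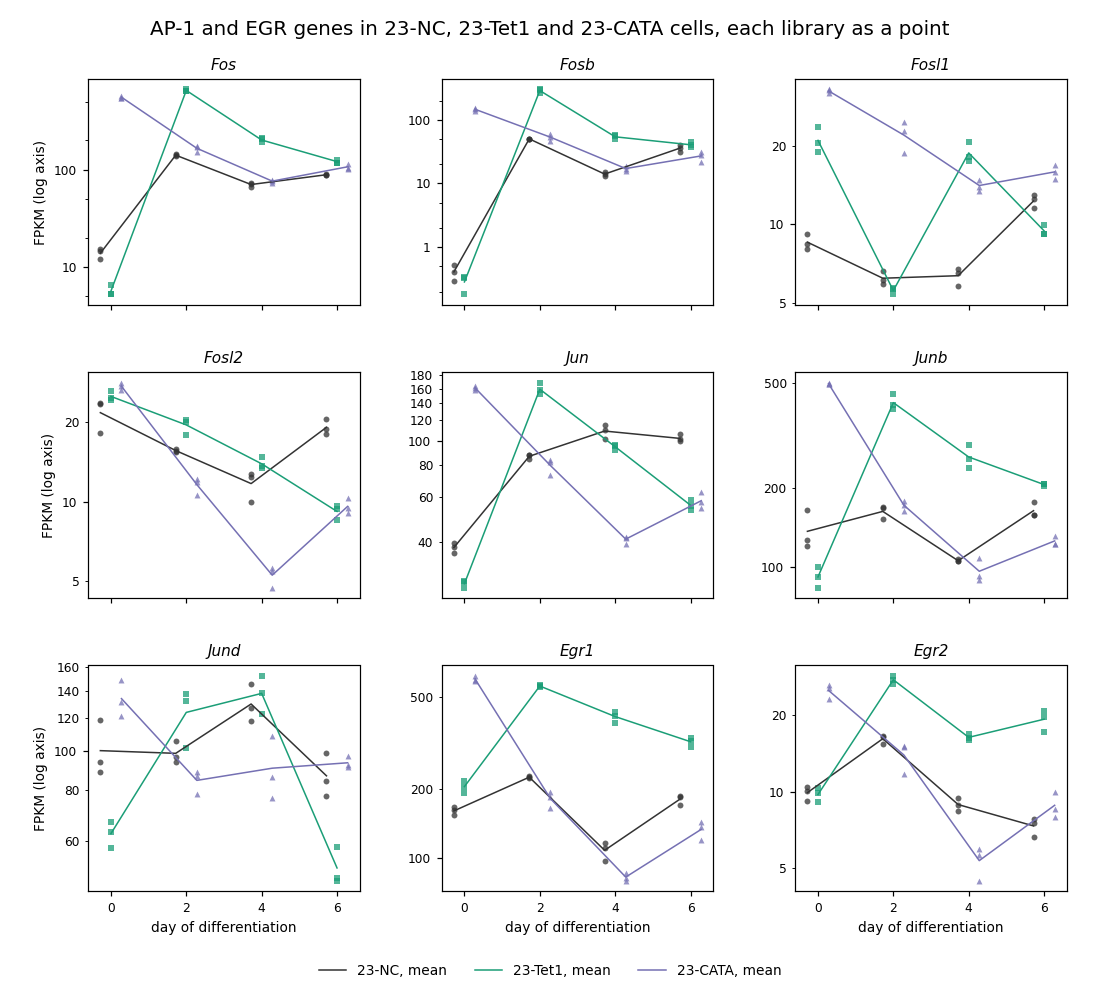
FPKM (log axis) of each of the 9 genes against day in 23-NC (dark grey circles), 23-Tet1 (green squares) and 23-CATA (purple triangles) libraries; each point is a library, set slightly aside by population, and lines join the means of 3. At day 0 Fos was at 549 FPKM or more in 23-CATA and at 15.1 FPKM or less in 23-NC and 23-Tet1, and at day 2 the 23-Tet1 libraries were highest.

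In the second table the starting levels differed by population, and so did the direction of change. In 23-NC and 23-Tet1 the genes Fos, Fosb and Jun were low at day 0 and higher on all later days. In 23-CATA all 9 genes had their highest mean at day 0, and all 9 were called lower on each later day. The tables are set side by side here without a test, since they were deposited separately: before induction Fos was at 339.6 to 374 FPKM in WT and Tet1-KO, at 12.04 to 15.1 FPKM in 23-NC, at 5.19 to 6.46 FPKM in 23-Tet1 and at 548 to 573 FPKM in 23-CATA. Whether the cells of the 2 tables were handled alike before day 0 is not stated in the labels, and handling was not tested.

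In 23-NC, 6 members were called higher and 2 lower at day 2 (24.4% and 35.1% of all genes, 59.5% in all), 4 and 4 at day 4 (30.2% and 42.1%, 72.4% in all), and 6 and 1 at day 6 (31.7% and 40.5%, 72.2% in all). Fos went from 14.4, 12.04 and 15.1 FPKM at day 0 to 138, 139.9 and 144 FPKM at day 2, 73.0, 71.5 and 66.5 FPKM at day 4 and 88.9, 87.1 and 90.2 FPKM at day 6. No 2 days overlapped, and the change at day 2 was 3.33 (SE 0.07; limma adjusted p = 1.03e-25). Fosb went from 0.52, 0.29 and 0.41 FPKM to 49.3, 50.6 and 49.99 FPKM at day 2, 123 times the mean of day 0, and was at 31.6 to 39.5 FPKM at day 6. Its change at day 2 was 5.25 (SE 0.10; limma adjusted p = 8.74e-27), the 13th highest of 12231 genes. Jun also rose by day 2, from 36.2 to 39.9 FPKM at day 0 to 84.9 to 88.0 FPKM. Its highest mean was that of day 4, at 101 to 115 FPKM.

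Junb, Egr1 and Egr2 moved little in 23-NC. Egr1 was at 153 to 166 FPKM at day 0, 222 to 226 at day 2, 97.2 to 116 at day 4 and 169.9 to 186 at day 6, changes of 0.55, -0.47 and 0.24. The call on Egr1 at day 6 was lost after quantile normalisation (limma adjusted p = 0.377), with only the compared groups fitted (0.0874), and without 1 of 4 single libraries (0.0559 to 0.114). Egr2 changed by 0.72, -0.05 and -0.31, and Junb by 0.33, -0.26 and 0.34. The Junb libraries of days 2 and 6 overlapped those of day 0, and both calls were lost with only the compared groups fitted (0.142 and 0.116) and without 1 of 3 single libraries each (0.0747, 0.121 and 0.0558 at day 2; 0.0557, 0.0926 and 0.0582 at day 6). Fosl1 fell by 0.34 and 0.28 at days 2 and 4 and rose by 0.56 at day 6. Fosl2 fell by 0.37 and 0.74 at days 2 and 4. Jund was called only at day 4 (0.47; limma adjusted p = 0.00896), lost without day 0 replicate 2 or day 4 replicate 1 (0.062 each) and after quantile normalisation (0.0695).

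23-Tet1 showed the largest rises of Fos and Fosb among the 5 populations. Members called higher and lower numbered 7 and 2 at day 2 (28.8% and 35.6% of all genes, 64.4% in all), 7 and 1 at day 4 (31.0% and 40.6%, 71.5% in all), and 6 and 3 at day 6 (32.8% and 44.7%, 77.6% in all). Fos went from 5.19, 6.46 and 5.19 FPKM at day 0 to 669.5, 646 and 646 FPKM at day 2, then to 209, 192 and 205 FPKM at day 4 and 127, 118 and 117 FPKM at day 6. Mean FPKM was 116 times higher at day 2 than at day 0, a change of 6.68 (SE 0.07; limma adjusted p = 2.37e-33). Fosb went from 0.34, 0.33 and 0.18 FPKM to 299, 267 and 296 FPKM at day 2, a change of 7.85 (SE 0.10; limma adjusted p = 2.80e-31), and to 37.6 to 43.9 FPKM at day 6. These were the first (Fosb) and the sixth (Fos) highest changes of 12231 genes at day 2, and no 2 days overlapped for Fos.

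Jun, Junb, Egr1 and Egr2 of 23-Tet1 had their highest mean at day 2 as well, with smaller changes, and Jund had its highest at day 4. Jun went from 28.1, 27.9 and 26.5 FPKM to 169, 152 and 158 FPKM at day 2 and 53.4 to 58.5 FPKM at day 6. Junb went from 83.8, 100.4 and 91.7 FPKM to 452, 397 and 413 FPKM at day 2 and 203 to 208 FPKM at day 6. Egr1 went from 204, 216 and 191 FPKM to 549, 561 and 557 FPKM at day 2 and 304 to 332 FPKM at day 6. The changes at day 2 were 2.53 for Jun, 2.23 for Junb, 1.49 for Egr1 and 1.45 for Egr2 (SE 0.06 to 0.09), all called, and all 4 were still called higher at day 6. Fosl1 took the opposite course, from 20.5, 23.6 and 18.9 FPKM at day 0 to 5.39, 5.72 and 5.64 FPKM at day 2, a change of -1.69 (SE 0.08; limma adjusted p = 2.03e-17), it was at 17.5 to 20.7 FPKM at day 4, and it was at 9.15 to 9.96 FPKM at day 6, again called lower than at day 0 (-0.95; limma adjusted p = 9.79e-13). Fosl2 fell on all 3 days (-0.30, -0.72 and -1.24). Jund rose at days 2 and 4 (1.01 and 1.20), and its day 6 call (-0.16; limma adjusted p = 0.0478) was on overlapping groups and was lost without 1 of 4 single libraries (0.0903 to 0.148), without a filter (0.0693) and after median-ratio scaling (0.389).

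In 23-CATA, 9 of 9 members were called lower on days 2, 4 and 6. Over all genes 72.3%, 81.5% and 77.0% were called, and 45.2%, 55.6% and 49.7% were called lower; the members' median changes were -1.02, -1.84 and -1.23. The medians over all genes were -0.16, -0.34 and -0.22. The share of calls that were higher was 37.4%, 31.7% and 35.5%, and 48.8%, 49.8% and 49.7% after median-ratio scaling. Fos went from 573, 548 and 549 FPKM to 172, 174 and 152 FPKM at day 2, 73.5, 76.1 and 78.8 FPKM at day 4 and 114, 102 and 104 FPKM at day 6. Day 4 was thus the lowest day, and no 2 days overlapped. The changes of Fos were -1.59, -2.52 and -2.16 (SE 0.07; limma adjusted p = 2.90e-19, 7.58e-25 and 1.14e-22), and those of Fosb were -1.29, -2.69 and -2.19.

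Every member of 23-CATA but Jund had its lowest mean at day 4; for Jund that was day 2. Egr1 went from 589, 616 and 585 FPKM at day 0 to 79.7, 86.5 and 81.8 FPKM at day 4 and 144, 119.8 and 136 FPKM at day 6. Its changes were -1.56, -2.50 and -1.94 (SE 0.07). Junb went from 497, 493 and 501 FPKM to 89.3 to 108 FPKM at day 4, a change of -2.02, and Jun from 158 to 163 FPKM to 39.5 to 42.0 FPKM, a change of -1.60. Fosl1 fell least among the FOS genes, from 31.8 to 32.9 FPKM at day 0 to 13.4 to 14.8 FPKM at day 4 (-0.82). The Jund calls at days 4 and 6 (-0.23 and -0.29) were lost after median-ratio scaling (limma adjusted p = 0.2 and 0.0651).

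**Figure D3:**
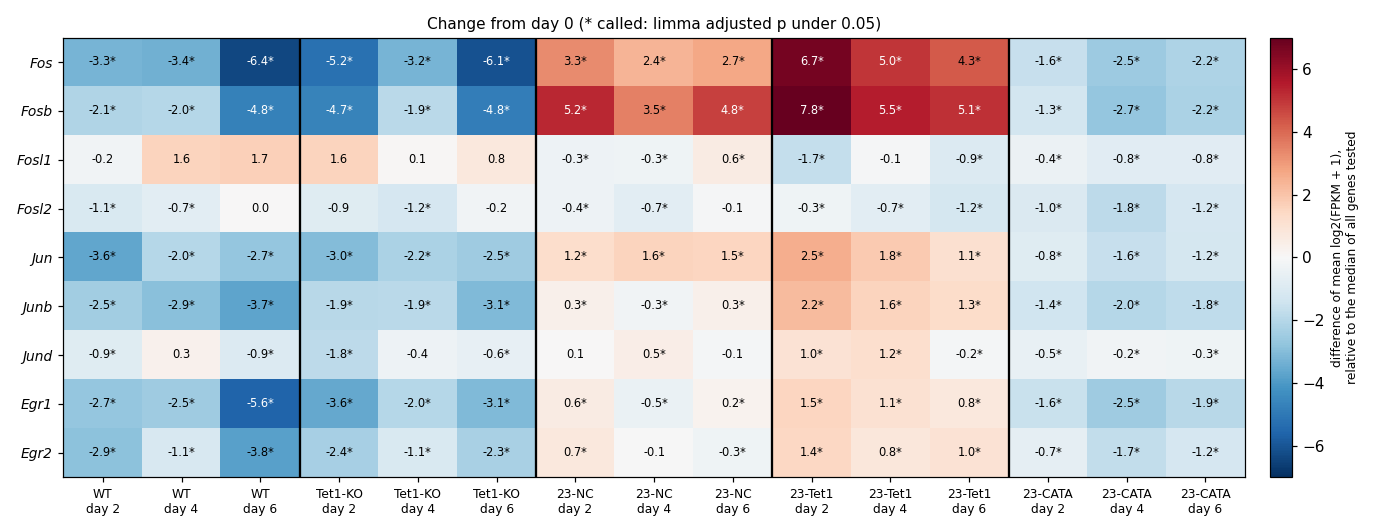
Heat map of the change from day 0 for the 9 genes (rows) at days 2, 4 and 6 in 5 populations (columns), as differences of mean log2(FPKM + 1) less the median over all tested genes; red is higher, blue lower, and asterisks mark calls. Fos is at -6.39 at day 6 in WT and at 6.68 at day 2 in 23-Tet1, and all 27 cells of 23-CATA are called lower.

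Populations of the second table were compared on each day. Before induction 23-CATA was above 23-NC for all 9 members, all called higher (43.3% of all genes called, 31.6% higher). Fos was at 573, 548 and 549 FPKM against 14.4, 12.04 and 15.1 FPKM, 40.2 times the mean, a change of 5.13 (SE 0.07; limma adjusted p = 9.91e-31). Fosb was at 148, 152 and 139 FPKM against 0.29 to 0.52 FPKM, a change of 6.60 (SE 0.10; limma adjusted p = 2.08e-29). Fosb and Fos ranked 4 and 10 of 12231 genes by height of this difference. Jun (1.94), Egr1 (1.78), Junb (1.75), Fosl1 (1.70) and Egr2 (1.14) were higher without overlap. Fosl2 and Jund differed least (0.22 and 0.31): with only the compared groups fitted both calls were lost (0.0621 and 0.0571), and that on Jund also without 23-NC day 0 replicate 2 (0.0599), without 23-CATA day 0 replicate 1 (0.0576) and after median-ratio scaling (0.062). The adipocyte marker sum at day 0 was 2536 FPKM in 23-CATA and 62.4 FPKM in 23-NC, with 8 of 8 of these markers called higher.

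After induction the differences between 23-CATA and 23-NC ran in both directions. For Fos, Fosb, Jun, Junb, Egr1 and Egr2 they were smaller than at day 0, and for Fosl2 they were larger (-0.43, -0.92 and -0.94 at days 2, 4 and 6). At day 2 Fos and Fosl1 were called higher and Fosl2 and Egr1 lower in 23-CATA (34.3% and 30.7% of all genes, 65.0% in all). Fos was at 172, 174 and 152 FPKM against 138 to 144 FPKM, a change of 0.21 (SE 0.07; limma adjusted p = 0.00443), lost after quantile normalisation (0.492). At day 4, 2 members were higher and 5 lower (28.9% and 39.9%, 68.7% in all), with Fosl1 at 13.4 to 14.8 FPKM against 5.79 to 6.76 FPKM (1.12) and Jun at 39.5 to 42.0 FPKM against 101 to 115 FPKM (-1.30). Fosb was the other member higher (0.35; limma adjusted p = 0.0219), lost without 23-NC or 23-CATA day 4 replicate 2 (0.0837 and 0.115) and with a pseudocount of 0.1 FPKM (0.0892). At day 6, 3 were higher and 5 lower (74.4% of all genes called), with changes between -0.94 (Fosl2) and 0.33 (Fosl1). Of these, Fos (0.25) was lost after quantile normalisation (0.929) and Egr2 (0.22) without 23-NC day 6 replicate 3 (0.127), without 23-CATA day 6 replicate 1 (0.17) and with only the compared groups fitted (0.0538). Fosl1 was thus called higher in 23-CATA than in 23-NC on all 4 days. The share of calls that were higher moved from 73.0% at day 0 and 42.0% at day 4 to 53.2% and 53.1% after median-ratio scaling, and at day 0 to 43.7% after quantile normalisation.

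23-Tet1 and 23-NC differed in both directions at day 0 and mostly in 1 direction at day 2. At day 0, 3 members were called higher and 4 lower in 23-Tet1 (37.8% and 23.5% of all genes, 61.3% in all). Fos was at 5.19 to 6.46 FPKM against 12.04 to 15.1 FPKM, a change of -1.26 (SE 0.07; limma adjusted p = 1.38e-14), and Fosl1 was at 18.9 to 23.6 FPKM against 8.02 to 9.22 FPKM, a change of 1.10 (SE 0.08; limma adjusted p = 3.12e-13). The Fosl2 call (0.11) was lost without 23-NC day 0 replicate 1 (-0.01; 0.38), without any library of 23-Tet1 day 0 (0.0515 to 0.132) and in 4 other settings. At day 2, 8 members were higher and none lower (63.9% of all genes called, 38.7% higher). Fos was at 646 to 669.5 FPKM against 138 to 144 FPKM, 4.65 times the mean (2.11; SE 0.07; limma adjusted p = 3.58e-21), Fosb 5.75 times (2.4), Egr1 2.48 times (1.21), Junb 2.57 times (1.26), Jun 1.84 times (0.77) and Egr2 1.70 times (0.64). Among the weaker calls, Jund (0.22; limma adjusted p = 0.0293) overlapped and was lost without 1 of 4 single libraries (0.0711 to 0.148) and after median-ratio scaling (0.173), where Fosl2 (0.20) was lost as well (0.0548).

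At day 4, 7 members were higher and 1 lower in 23-Tet1 than in 23-NC (35.0% and 21.9% of all genes, 56.9% in all). Egr1 was at 431, 386 and 414 FPKM against 97.2 to 116 FPKM, a change of 1.84 (SE 0.07; limma adjusted p = 1.75e-19), and Fos at 192 to 209 FPKM against 66.5 to 73.0 FPKM, a change of 1.43. Jun was the member lower (-0.28; limma adjusted p = 0.0046), lost after quantile normalisation (0.165), and the Fosl2 call (0.16) was lost without 23-NC day 4 replicate 3 or 23-Tet1 day 4 replicate 2 (0.181 and 0.0745) and in 3 other settings. At day 6, 4 were higher and 4 lower (65.0% of all genes called): Egr2 (1.23), Egr1 (0.77), Fos (0.39) and Junb (0.28) were higher, and Fosl2 (-1.03), Jun (-0.91), Jund (-0.78) and Fosl1 (-0.40) were lower. The share of calls that were higher at days 0, 2 and 4 was 61.6%, 60.6% and 61.5%, and 51.2%, 50.3% and 47.9% after median-ratio scaling. The adipocyte marker sum was higher in 23-NC than in 23-Tet1 on days 0, 2 and 4 (22607 against 16160 FPKM at day 4) and lower on day 6 (11019 against 53517 FPKM).

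The 2 populations with high Tet1 reached high AP-1 levels on different days. 23-CATA was above 23-Tet1 at day 0, with 8 of 9 members called higher and none lower (64.2% of all genes called, 32.9% higher). Fos was 99.2 times the mean of 23-Tet1, a change of 6.40 (SE 0.07; limma adjusted p = 4.35e-33), and Fosb was at 139 to 152 FPKM against 0.18 to 0.34 FPKM, a change of 6.84 (SE 0.10; limma adjusted p = 8.55e-30). At day 2 the order was reversed, with 1 member higher (Fosl1, 1.85) and 8 lower in 23-CATA (30.3% and 37.1% of all genes, 67.4% in all). Fos was at 152 to 174 FPKM against 646 to 669.5 FPKM, a change of -1.92. At day 4 all 9 were lower (74.2% of all genes called, 46.6% lower), led by Egr1 at 79.7 to 86.5 FPKM against 386 to 431 FPKM, a change of -2.13 (SE 0.07; limma adjusted p = 4.92e-22). At day 6, 2 were higher and 5 lower (31.9% and 33.8%, 65.7% in all), with Egr1 still lower (-1.25) and Jund and Fosl1 higher (0.85 and 0.70). The day 4 call on Fosl1 was lost after median-ratio scaling (0.139), as was the day 6 call on Fos (-0.17; 0.216), which also failed without 23-Tet1 day 6 replicate 1 (0.117) or 23-CATA day 6 replicate 2 or 3 (0.108 and 0.0849). The share of calls that were higher at day 4 was 37.2%, and 54.0% after median-ratio scaling.

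The changes from day 0 differed between the populations of the second table when tested directly. Against the change of 23-NC, 23-Tet1 was ahead at day 2 for 7 members and behind for Fosl1 (27.0% and 26.9% of all genes, 53.9% in all), with Fos ahead by 3.38 (SE 0.10; limma adjusted p = 1.66e-21). At day 6, 4 were ahead and 3 behind (29.1% and 32.3%, 61.4% in all). For 23-CATA, 8 of 9 members were behind the change of 23-NC at day 2 and 8 of 9 at day 6, and none was ahead (50.4% and 63.5% of all genes called, 30.5% and 36% lower). Fosb stood at -6.55 and -7.02, the most negative of 12231 genes at both days, and Fos at -4.92 and -4.88 (ranks 3 and 4). The higher start of 23-CATA at day 0 makes up most of these values. Against 23-NC, Fosb in 23-CATA stood at 6.60 at day 0, 0.06 at day 2 and -0.42 at day 6. Fos stood at 5.13, 0.21 and 0.25 on the same days. For 23-CATA at day 2, 39.5% of all calls were higher as deposited and 50.7% after quantile normalisation. These comparisons share the 23-NC libraries, so that the 2 sets of values are not independent of each other.

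**Figure D4:**
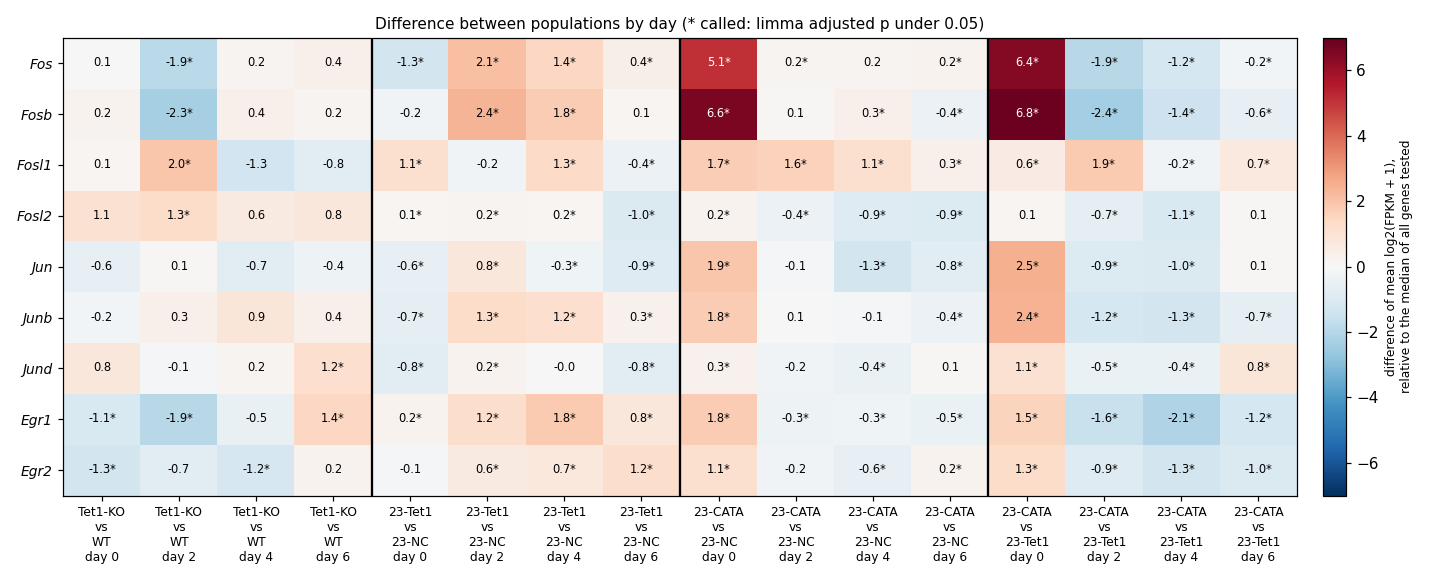
Heat map of the difference between populations on each day for the 9 genes (rows), as differences of mean log2(FPKM + 1) less the median over all tested genes; red is higher in the first-named population, blue lower, and asterisks mark calls. The strongest red cells are Fos and Fosb in 23-CATA at day 0, at 5.13 and 6.60 against 23-NC and 6.40 and 6.84 against 23-Tet1.

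The range of a member over the groups set the 9 genes apart from each other. In the first table the highest group mean was 164 times the lowest for Fosb, 137 for Fos, 69.2 for Egr1 and 39.8 for Egr2, but 18.2 for Jun, 15.7 for Junb, 10.4 for Fosl1, 7.27 for Fosl2 and 4.01 for Jund. Without Tet1-KO day 2 replicate 2 that of Fosl1 was 14.7, and without day 6 replicate 2 that of Fosb was 162. In the second table the ratios were 1014 for Fosb and 117 for Fos, then 7.22 for Egr1, 5.85 for Jun, 5.82 for Fosl1, 5.40 for Junb, 5.18 for Fosl2, 5.11 for Egr2 and 2.67 for Jund. With its 12 groups ordered by mean, Fos had no neighbours that overlapped: 23-Tet1 day 2 led, then came 23-CATA day 0, 23-Tet1 day 4 and 23-CATA day 2, and 23-NC day 0 and 23-Tet1 day 0 were last. Egr1 had the same first 3 groups in another order, 23-CATA day 0 (597 FPKM) ahead of 23-Tet1 day 2 (556) and day 4, with 2 of 11 neighbouring pairs overlapping. For Jund 10 of 11 neighbouring pairs overlapped, and in the first table all 7 did for Fosl1. The highest Fosl1 group of the second table was 23-CATA day 0 (32.5 FPKM), and 23-Tet1 day 2, the highest for Fos, was the lowest for Fosl1 (5.58 FPKM).

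As a description over libraries that share groups and days, the members' log2(FPKM + 1) values were correlated within each table. Fos and Fosb had a Pearson r of 0.97 over the 24 libraries of the first table and 0.98 over the 36 of the second, Egr1 and Egr2 0.92 and 0.91, Junb and Egr1 0.85 and 0.91, and Fos and Jun 0.80 and 0.86. Fos and Egr1 had 0.95 and 0.58. Fosl1 had -0.29 and 0.01 with Fos, and Fosl2 had 0.18 and -0.08. Without Tet1-KO day 6 replicate 2, the values of the first table were -0.43 for Fos and Fosl1 and 0.30 for Fos and Fosl2, and 0.97, 0.93, 0.86, 0.80 and 0.96 for the other 5 pairs in the order given. The 11572 genes tested in both tables were ranked by likeness to a member, leaving out the members and gene models without a conventional symbol. By the smaller of the 2 values of r, Zfp36 (0.92 and 0.96), which destabilises AU-rich mRNAs, was most like Fos. Dusp1 (0.80 and 0.77), a MAP kinase phosphatase, and Btg2 (0.75 and 0.90), an antiproliferative gene, came next. Jun had the same 3, led by Btg2 (0.92 and 0.84). Egr1 had Egr3 (0.89 and 0.89), Nr4a1, an orphan nuclear receptor gene (0.86 and 0.91), and Ier2 (0.97 and 0.79). The nearest to Fosl1 were less alike: Dhx35 (0.62 and 0.56), Mindy1 (0.53 and 0.53) and Pvr (0.62 and 0.53).

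Other immediate early genes, 23 of a list of 24 tested, are described by counts. In WT 5 rose and 16 fell at day 2 (18.9% and 43.2% of all genes) and 2 and 14 at day 6 (19.2% and 37.4% of all genes), with median changes of -1.77 and -1.06 where that of all genes is 0. Cyr61, a secreted matricellular protein gene, was at a mean of 532 FPKM at day 0 and 6.07 FPKM at day 2 (-5.87), Klf2 changed by -4.91, Klf4 by -3.82 and Btg2 by -3.77. In 23-NC 14 rose and 7 fell at day 2, in 23-Tet1 17 and 4, and in 23-CATA 5 and 16, with medians of 0.39, 1.15 and -1.21. The shares of all genes called higher and lower were 24.4% and 35.1%, 28.8% and 35.6%, and 27.0% and 45.2%. In 23-Tet1 at day 2 Zfp36 went from a mean of 21.5 to 379 FPKM (4.12), Nr4a1 changed by 3.25, Dusp1 by 2.70 and Btg2 by 2.47. At day 0, 19 of the 23 were higher and 1 lower in 23-CATA than in 23-NC (median 0.65; 31.6% and 11.7% of all genes), led by Btg2 (3.31), Zfp36 (2.98), Dusp1 (2.80) and Nr4a1 (2.09). Between Tet1-KO and WT at day 2, 8 were higher and 1 lower (16.2% and 6.76% of all genes), and 13 and 1 without Tet1-KO day 2 replicate 2: Cyr61 (2.57), Ier3 (2.11) and Ier5 (1.66) were among those higher, and Ier2 (-1.78) was the one lower.

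The other EGR genes and the NAB corepressors, which bind EGR proteins and restrain them, numbered 4. In WT all 4 were lower at day 2, beside 43.2% of all genes. Egr3 went from a mean of 15.7 to 0.607 FPKM (-2.99), Nab2 changed by -1.72, Egr4 by -0.99 and Nab1 by -0.88. In 23-Tet1 at day 2 Egr3 (2.11) and Egr4 (1.64) rose while Nab2 (-0.43) and Nab1 (-0.37) fell. In 23-NC Egr3 rose (0.93), Nab2 and Nab1 fell (-1.07 and -0.62), and Egr4 was not called (0.26). In 23-CATA at day 2 Nab2 (-1.31), Egr3 (-0.49) and Egr4 (-0.28) fell and Nab1 was not called. Against 23-NC at day 2, all 4 were higher in 23-Tet1, beside 38.7% of all genes: Egr3 by 1.96, Egr4 by 1.47, Nab2 by 1.17 and Nab1 by 0.90.

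Among 14 other AP-1 partner genes of the ATF, MAF, BATF and JDP groups, 10 passed the filter and were tested in each table. In WT 2 rose and 5 fell at day 2, near the 18.9% and 43.2% of all genes: Atf5 changed by 2.12, Jdp2 by -1.86, Atf4 by 1.13 and Atf2 by -0.72. At WT day 6, Maff (3.55) and Atf3 (3.38), which are stress-induced, rose, and Jdp2 (-1.73) and Maf (-0.70) fell. In 23-Tet1 at day 2, 4 rose and 2 fell (28.8% and 35.6% of all genes), led by Maf, which went from a mean of 4.07 to 34.4 FPKM (2.84), and Atf5 (-1.61). In 23-CATA at day 2 none rose and 4 fell (27.0% and 45.2% of all genes), led by Jdp2 (-0.88).

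Genes of the ERK, JNK, p38 and SRF pathway, which act upstream, numbered 22, all tested. In WT 3 rose and 13 fell at day 2 (18.9% and 43.2% of all genes), with a median of -0.26: Elk3, an ETS factor that acts with SRF, went from a mean of 20.3 to 1.59 FPKM (-2.65), Srf changed by -1.05, Hras by 1.76 and Map2k2 by 1.48. In 23-NC 6 rose and 5 fell at day 2, in 23-Tet1 4 and 10, and in 23-CATA 2 and 8, with medians of 0.08, -0.18 and 0.10. Over all genes 24.4% and 35.1%, 28.8% and 35.6%, and 27.0% and 45.2% were called higher and lower in these 3 comparisons, so most of these counts lie near or below the share of all genes. Elk3 was lower in each (-1.16, -0.96 and -1.61), also where Fos rose. Of 11 genes of ERK feedback, 10 were tested in each table (Spred3 was not in the first, Spry4 not in the second). At day 2, 3 rose and 7 fell in WT, 2 and 7 in 23-NC, 1 and 7 in 23-Tet1 and 1 and 8 in 23-CATA, with medians of -1.52, -0.80, -0.86 and -0.51, beside the same shares of all genes. In 23-Tet1 the ETS genes Etv5 (-2.66) and Etv4 (-2.46), the phosphatase gene Dusp4 (-3.19) and Spred2 (-2.49) fell.

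Of 14 genes known as AP-1 targets, 11 were tested in the first table and 10 in the second. In WT 1 rose and 8 fell at day 2 (median -1.21; 18.9% and 43.2% of all genes), with the chemokine gene Ccl2 from a mean of 213 to 2.07 FPKM (-5.77), Spp1 by -4.31, the cyclin gene Ccnd1 by -3.96 and the protease gene Plau by -3.29. In the populations where Fos rose, 1 rose and 6 fell at day 2 in 23-NC (median -1.08; 24.4% and 35.1% of all genes) and 2 and 7 in 23-Tet1 (median -0.70; 28.8% and 35.6% of all genes). There Ccnd1 changed by -2.0 in 23-NC and -2.14 in 23-Tet1. Fos, Fosb, Jun, Junb, Egr1 and Egr2 were called higher at day 2 in both populations, and Fosl1 and Fosl2 were called lower. The Fosl1 and Fosl2 changes were -0.34 and -0.37 in 23-NC and -1.69 and -0.30 in 23-Tet1. In 23-CATA 1 of these targets rose and 7 fell (median -2.28, beside 27.0% and 45.2% of all genes). Between Tet1-KO and WT at day 2, 7 of 11 targets were higher and none lower in Tet1-KO (median 1.75, beside 16.2% and 6.76% of all genes). Without Tet1-KO day 2 replicate 2 these counts were 9 and none (median 2.08). Ccl2 (4.35), Il6 (2.55) and Timp1 (1.75) were among those higher. On that day Fos, Fosb and Egr1 were called lower and Fosl1 (1.96) and Fosl2 (1.31) higher in Tet1-KO. The adipocyte marker sum was lower too. The part of each in this was not tested.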

How the data were processed

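RNA-seq of 60 C3H10T1/2 libraries was deposited as 2 tables of FPKM (fragments per kilobase of transcript, scaled to sequencing depth), made by the authors from reads aligned with STAR 2.4.1a and counted with RSEM on mm10, per the submitters' processing notes. FPKM are not counts, so no count model was used. In 11 samples titled 23-Tet1 the title and the genotype tag differ; the title was followed. Genes at 1 FPKM or more in at least 3 libraries of a table were kept (11911 and 12231 genes), and log2(FPKM + 1) was fitted in limma 3.58.1 (R 4.3.3) with a mean-variance trend, all groups of a table in 1 fit. P-values were adjusted by Benjamini-Hochberg over all genes tested. Calls come from the fitted change; the printed change has the median over all genes tested taken off. All 9 members passed the filter in both tables, and 37 comparisons gave 333 tests of members. The analysis was tested on simulated data.

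The members and gene lists were chosen with earlier results of these data known. Members were named in full; beyond them, the 4 genes of a list with the largest called change in a comparison were eligible to be named, with the EGR and NAB genes named throughout, and further list genes were picked after their values were seen. The 3 genes most like a member were ranked by the smaller Pearson r of the 2 tables. Alternatives were a pseudocount of 0.1, no filter, quantile normalisation, median-ratio scaling, fitting the compared groups alone, library weights, a replicate block, and leaving out each library. Tet1-KO day 6 replicate 2 was also left out of the shared fit for all comparisons of the first table. Promoter windows and motifs came from RefSeq on GRCm38.p6 and gene spans from GENCODE M21. FPKM tables hold no totals, so counting intervals were not computed; depth was estimated as given above.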

Additional observations from a re-analysis of the deposited data

Results flagged for a closer look

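The change from day 0 differed between populations, by a limma test of the difference itself, in 4 of 18 tests of members for Tet1-KO against WT, near the 21.9% and 17.8% of all genes called at days 2 and 6, and in 31 of 36 in the second table, where 50.4% to 63.5% of all genes were called. Values are log2 differences less the median over all genes, first-named population minus the second. For Tet1-KO against WT, day 2 gave -1.95 for Fos and -2.61 for Fosb, and day 6 gave 2.52 for Egr1 and 1.52 for Egr2.

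For 23-Tet1 against 23-NC, the rise to day 2 was larger in 23-Tet1 by 3.38 for Fos, 2.63 for Fosb, 1.92 for Junb, 1.32 for Jun, 0.98 for Jund, 0.96 for Egr1 and 0.75 for Egr2, and Fosl1 stood at -1.33. At day 6 the values were 1.65 for Fos, 1.34 for Egr2, 0.93 for Junb and 0.52 for Egr1 on the higher side, and -1.51 for Fosl1, -1.15 for Fosl2 and -0.37 for Jun on the lower. The Egr1 value at day 6 was not called after quantile normalisation (adjusted p = 0.0533).

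For 23-CATA against 23-NC, day 2 gave -6.55 for Fosb, -4.92 for Fos, -2.12 for Egr1, -2.08 for Jun, -1.70 for Junb, -1.37 for Egr2, -0.65 for Fosl2 and -0.55 for Jund. Day 6 gave -7.02 for Fosb, -4.88 for Fos, -2.76 for Jun, -2.23 for Egr1, -2.15 for Junb, -1.38 for Fosl1, -1.16 for Fosl2 and -0.92 for Egr2. For Fosb and Fos, most of each value is the day 0 difference between 23-CATA and 23-NC (6.60 and 5.13). All comparisons of a population use its 3 libraries of day 0, so a member's day 2 and day 6 values share them.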

How the results depend on the processing

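Members called in the other families of comparisons stayed within 1.5 times the reported count in every setting run, and no member changed direction while called. Tet1-KO against WT on the same day gave 10 of 36 calls. Over all genes 16.8%, 22.9%, 16.0% and 45.4% were called at days 0, 2, 4 and 6. The member calls numbered 6 with a pseudocount of 0.1 and 25 with library weights, and the shares of all genes in those settings are not given here. The change from day 0 in Tet1-KO against WT gave 4 of 18 calls, beside 21.9% and 17.8% of all genes at days 2 and 6. The member calls numbered 2 with a pseudocount of 0.1, 7 with the compared groups fitted alone and 10 with library weights. With single libraries left out they numbered 3 to 7 (3 without WT day 2 replicate 1, 7 without Tet1-KO day 2 replicate 2). The cause was not tested. The estimation of library weights stopped before it converged in both tables. Of 333 tests of members, a replicate block lost 0 calls and gained 4: Fosl1 in WT at day 6 (adjusted p = 0.0426), Junb in Tet1-KO against WT at day 4 (0.0249), Jun in 23-CATA against 23-NC at day 2 (0.0486) and Fosb in the change of 23-Tet1 against 23-NC at day 6 (0.0367). Same-numbered libraries deviated together (every pair's correlation over 0.1) in 1 of 31 pairs of groups, so the numbers were not taken as pairs. Across all tests of members, quantile normalisation lost 11 calls and gained 15, median-ratio scaling lost 14 and gained 6, and no filter lost 4 and gained 0. With 3 libraries a group, an exact permutation test of a single value cannot go below 0.1, so all calls rest on the spread shared across groups. The depth of Tet1-KO day 6 replicate 2 is unclear. With it left out of the shared fit, some comparisons that do not use it gained calls. Fosl2 was called in Tet1-KO at day 2 against day 0 (-0.86, limma adjusted p = 0.0453). For Tet1-KO against WT, Egr2 was called at day 2 (-0.73, 0.0443), Junb at day 4 (0.87, 0.0113) and Egr2 in the change from day 0 to day 2 (0.53, 0.0387).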
